A study of Mus musculus with 21 samples.

Results

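The replication-dependent histone genes are the families that supply newly copied DNA with its H1, H2A, H2B, H3 and H4 proteins. Members were taken by rule as protein-coding genes whose GENCODE M21 symbol begins with Hist1h, Hist2h, Hist3h or Hist4h and that had 10 or more counts in at least 3 of the 21 libraries. Of 54532 genes in the table, 67 carried such a symbol and 61 met the count rule: 6 H1, 15 H2A, 17 H2B, 10 H3 and 13 H4 genes. The 6 genes left out were Hist1h2aa, with 7 counts in all libraries together, and Hist2h2aa1, Hist2h2aa2, Hist2h2bb, Hist2h3b and Hist2h3c1, with 0 counts each. All 50-base stretches of those 5 genes also occur in another annotated gene.

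RNA was sequenced from myeloid cells sorted out of collagenase-digested adipose tissue of male C57BL/6 mice kept for 16 weeks on a high fat diet (obese) or a normal diet (lean). MHCII-low macrophages, MHCII+CD11c- macrophages (CD11c-negative below) and monocyte-derived cells were taken from lean and obese mice, and MHCII+CD11c+ macrophages (CD11c-positive below) from obese mice, with 3 libraries in each of the 7 groups. Age is not given in the labels. Nothing in the labels ties the libraries of a group to separate animals, so p-values measure the spread between these libraries, which may be technical. CD11c-positive macrophages of lean mice were not analysed here, so diet and population cannot be told apart for that population.

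Histone genes of this kind lack introns, are switched on at the start of S phase, and make messages that end in a conserved stem-loop in place of a poly(A) tail. Stem-loop binding protein (Slbp) holds that loop during processing and translation, and the messages are degraded when DNA synthesis stops, so they are widely used as signs of cells in S phase. Some of the genes also yield polyadenylated messages in differentiated cells, and tissue macrophages are known to divide locally. How the library kit primed RNA without a poly(A) tail is not given in the labels.

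The stem-loop was searched in the GENCODE M21 transcripts (GRCm38), as a stem of 6 paired bases and a loop of 4 bases, because it sets these messages apart from most others. It was found in an annotated transcript of 41 of the 61 members, and in 39 of the 45 whose annotation runs 60 or more bases past the stop codon. The commonest form stood in 23 of the 41 members, and a form with other stem bases in 7 members, all of them H4 genes. The sites of a leading member of each class and of Hist2h2ac, which lies outside the main cluster, read as follows from 5′ to 3′, with the stem and loop in capitals.
Hist1h1c: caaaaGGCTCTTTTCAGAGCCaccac
Hist1h2ap: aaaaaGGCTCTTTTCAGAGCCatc
Hist1h2bg: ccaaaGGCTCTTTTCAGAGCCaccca
Hist1h3f: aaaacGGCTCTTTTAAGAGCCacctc
Hist1h4d: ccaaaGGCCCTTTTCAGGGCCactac
Hist2h2ac: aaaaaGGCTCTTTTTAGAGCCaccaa
The annotated transcript ran 100 or more bases past the stem-loop in 21 of the 41, among them Hist1h1c (840 bases) and Hist1h4d (770 bases). The annotated transcripts of Hist1h2bc and Hist2h2be, both H2B genes with long annotated 3′ ends, held no such loop.

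The promoters of the members were compared as well, because most of the members rose with diet in macrophages. RefSeq promoters (GRCm38.p6, 250 bases before to 50 after the start) were matched for 55 of the 61 members. On both strands, CCAAT was found in 46 of 55 (83.6%) against 37.4% of all 32817 promoters, TATAAA in 32 of 55 (58.2%) against 13.6%, and the octamer ATTTGCAT in 11 of 55 (20%) against 1.7%. The octamer matches lay in 6 H2A and 5 H2B promoters, and CCAAT in each of the 43 matched H1, H2A, H2B and H3 promoters but in 3 of 12 H4 promoters. AAACACA, a word known from H1 promoters, was found in 4 of 5 H1 promoters against 7.2% of all. Matches of different motifs were counted separately and may overlap. Overlap between the windows of neighbouring members was not checked, so the same site may be counted for several members. A match is a run of letters and not a shown binding site. Hist1h2ap (chr13:21833426-21833725, minus strand) and Hist1h4d (chr13:23581318-23581617, plus strand) are shown as an H2A and an H4 example, with matches to CCAAT and TATAAA in capitals. Hist1h2ap has no TATAAA match, and Hist1h4d is among the 3 of 12 H4 promoters with CCAAT, so most H4 promoters differ from it there.
Hist1h2ap: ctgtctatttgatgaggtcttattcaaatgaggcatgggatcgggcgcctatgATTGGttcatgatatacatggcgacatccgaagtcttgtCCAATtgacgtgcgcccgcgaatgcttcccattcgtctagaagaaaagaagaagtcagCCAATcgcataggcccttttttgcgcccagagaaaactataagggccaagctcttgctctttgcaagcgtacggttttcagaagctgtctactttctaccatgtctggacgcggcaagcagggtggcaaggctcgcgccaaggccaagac
Hist1h4d: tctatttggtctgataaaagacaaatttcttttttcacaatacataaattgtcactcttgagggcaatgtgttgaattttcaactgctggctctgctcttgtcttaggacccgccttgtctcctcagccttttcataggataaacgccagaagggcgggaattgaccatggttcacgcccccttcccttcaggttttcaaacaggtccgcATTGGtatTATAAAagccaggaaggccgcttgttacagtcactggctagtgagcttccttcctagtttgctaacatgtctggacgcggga

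Library totals ran from 11245851 to 35568948 counts, lowest in lean monocyte-derived replicate 3. The macrophage genes Adgre1, Cd68 and Csf1r were detected in every library. Csf1r was lower in lean (297 to 875 CPM) and obese monocyte-derived (725 to 952 CPM) than in all macrophage libraries (1499 to 2533 CPM). So was Adgre1, at 70.6 to 178 CPM (lean) and 154 to 274 CPM (obese) against 384 to 498 CPM in lean and 685 to 1098 CPM in obese macrophages. Cd68 was at 75.4 to 169 CPM in lean and 240 to 334 CPM in obese monocyte-derived libraries, against 225 to 905 CPM in macrophages. Of the monocyte genes, Ccr2 was at 328 to 469 CPM in monocyte-derived and 40.7 to 303 CPM in macrophage libraries. Ly6c2 did not set them apart, at 1.78 to 5.61 CPM against 0.394 to 5.3 CPM. The MHCII genes H2-Ab1 and H2-Aa were at 208 to 496 CPM in MHCII-low macrophages and at 1182 to 4903 CPM in all other libraries. Itgax, which encodes CD11c, was at 452 to 625 CPM in CD11c-positive and at 57.2 to 96.9 CPM in obese CD11c-negative macrophages. Lean CD11c-negative macrophages held 14.1 to 19.1 CPM of Itgax. In MHCII-low macrophages it was at 3.7 to 5.5 CPM (lean) and 20.6 to 57.7 CPM (obese), and in monocyte-derived libraries at 303 to 374 CPM. In both macrophage populations sorted from both diets, Itgax, Adgre1 and Cd68 were higher and Csf1r lower in every obese library. The part of these shifts in the histone differences was not tested. Monocyte-derived libraries held dendritic cell markers at a summed 357 to 1107 CPM (lean) and 324 to 710.0 CPM (obese), against 14.8 to 115 CPM in the macrophage libraries. The 1459 olfactory and vomeronasal receptor genes, not known to be used by these cells, together took 295 to 1101 CPM of lean monocyte-derived libraries and 21.5 to 213 CPM of macrophage libraries, higher in the lean than in the obese groups of each population. Per kilobase of exon, all 61 members lay above the 95th percentile of those receptor genes in each of the 7 group means. The members had been chosen by a count rule and the receptor genes had not, so this outcome was largely set beforehand. Some members lay close to that level, such as Hist2h2ab in lean CD11c-negative macrophages (0.058 against 0.047 CPM per kilobase).

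Similar sequences may share reads. Over 50% of the 50-base stretches of 29 of the 61 members occur in another annotated gene, and none do for 4 members. The share was highest for Hist1h2bq (97.3%, main partner Hist1h2br), and it was 93.5% for Hist1h2ao, whose main partner is Hist1h2ap, so values of single members are less certain than sums over a class. All 15 H2A members are overlapped by genes annotated on the other strand, and the 15 genes opposite them summed to at most 0.0998 CPM in any library. No source used here says whether counting used the strand. The low sum therefore does not tell whether reads on these overlaps were left out of the H2A counts. On the same strand 4 members overlap another gene, Hist1h1e and Hist1h2be each other, Hist3h2a Trim17, and Hist1h2ac a predicted gene. Levels below are CPM, read counts divided by library size, scaled between libraries by TMM except for summed levels, which are CPM of the library total.

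Histone messages were lowest in lean macrophages and higher in every obese macrophage library. The summed level of the 61 members was 242, 257 and 257 CPM in lean MHCII-low and 685, 698 and 706 CPM in obese MHCII-low macrophages. It was 224, 337 and 343 CPM in lean CD11c-negative and 716, 771 and 1054 CPM in obese CD11c-negative macrophages, again with no overlap between the diets. CD11c-positive macrophages reached 982, 1097 and 1108 CPM. In monocyte-derived cells the sum was 571, 674 and 733 CPM in lean and 758, 856 and 1173 CPM in obese mice, so the groups did not overlap but lay closer than in the macrophages. Because these are bulk libraries, fewer cells in S phase and less histone RNA per cell cannot be told apart.

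**Figure D1:**
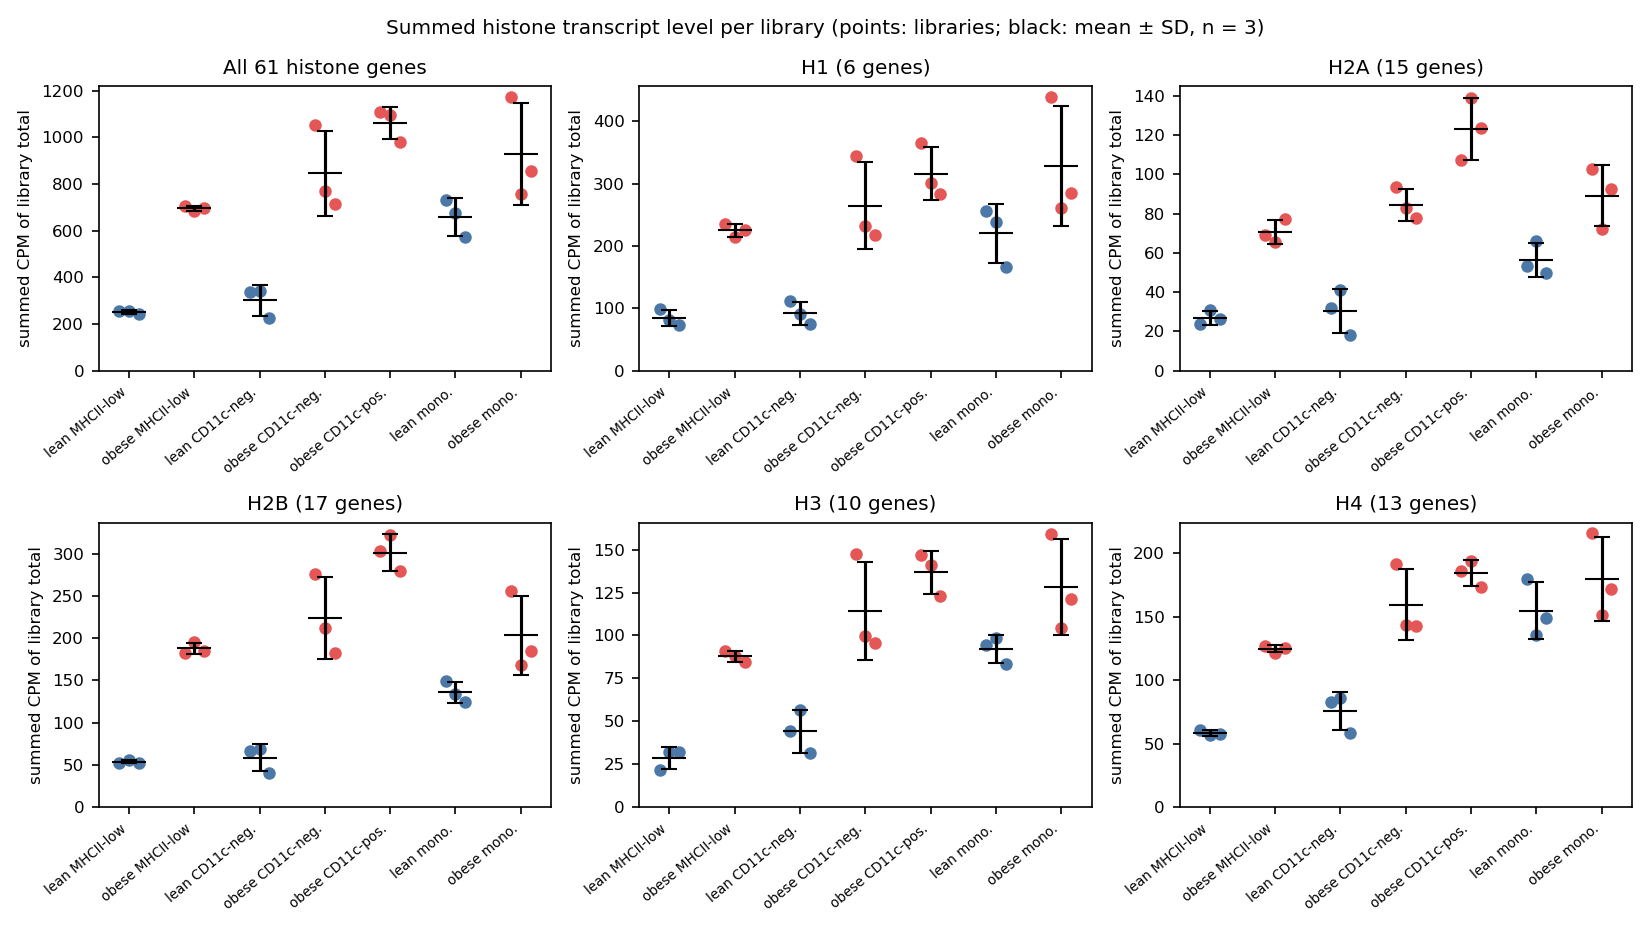
Summed CPM of all 61 histone genes and of each class (y axes, CPM of the library total) in the 7 groups (x axes); points are libraries, blue lean and red obese, and black marks are the mean ± SD of 3 libraries. In MHCII-low and in CD11c-negative macrophages, every obese library lies above every lean one in each of the 6 panels.

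The diet question is whether these genes differ between obese and lean mice within a population. In MHCII-low macrophages 50 of the 61 members rose and none fell at an adjusted p under 0.05 (edgeR quasi-likelihood test, Benjamini-Hochberg over 22935 genes), where 16.8% of all tested genes rose and 30.7% changed either way. In CD11c-negative macrophages 51 rose and none fell, where again 16.8% of all genes rose. The median log2 change of the members was 1.58 in MHCII-low and 1.44 in CD11c-negative macrophages, against -0.07 and -0.10 over all tested genes. Libraries of the diets did not overlap, with obese higher, for 51 members in MHCII-low (26.0% of all genes) and 51 in CD11c-negative macrophages (25.1%). In the latter 2 members were lower in every obese library, Hist3h2a and Hist2h2be (26.1% of all genes were), and neither passed the test. The diet contrasts of the MHCII-low and CD11c-negative populations use separate libraries but are not independent, since obese libraries of equal number are taken as pairs and the deviations of the 3 pairs of these populations correlated at 0.561, 0.669 and 0.338 over 10447 genes. The difference between their effects was not called for any of the 61 members by edgeR (0 at an unadjusted p under 0.05, 0 by DESeq2) or for any other gene (0.0% of 22935). Libraries were not paired in that test. With the number in the title as a block, shared between the diets, 0 members were called. A block kept separate for each diet was not run for this difference, so the lack of calls does not show equal effects.

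**Figure D2:**
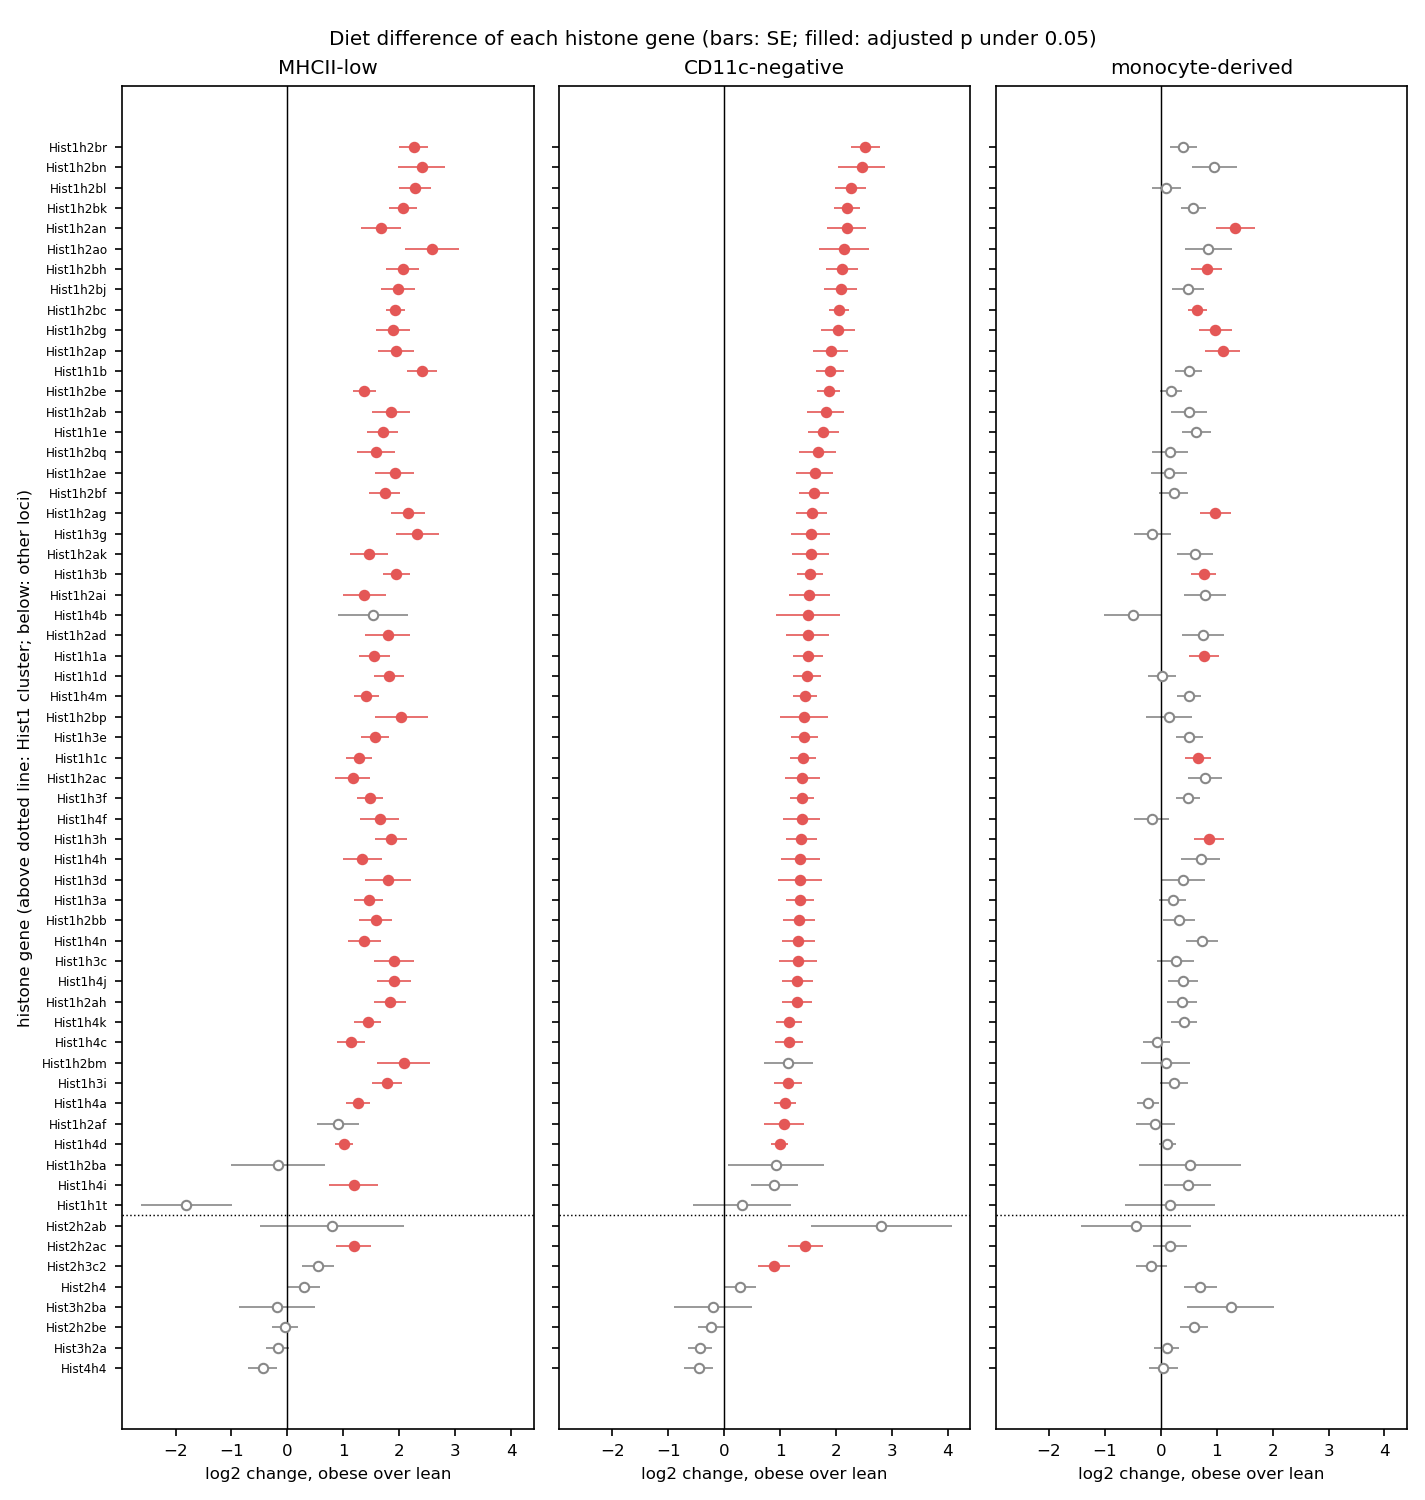
Log2 change, obese over lean, of each histone gene (y axis) in 3 populations (panels, x axis in log2 units); bars are SE, filled red points passed an adjusted p of 0.05, and genes below the dotted line lie outside the Hist1 cluster. Hist1 genes sit right of 0 in both macrophage panels except Hist1h1t and Hist1h2ba in MHCII-low cells, and nearer to 0 in monocyte-derived cells, while of those outside it Hist2h2ac passed in both macrophage panels and Hist2h3c2 in CD11c-negative cells. Hist2h2ab has a wide bar and did not pass.

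Linker histones (H1) bind the DNA that enters and leaves the nucleosome, and 5 of 6 members rose in each macrophage population. Hist1h1c stood at 40.7, 54.9 and 67.5 CPM in lean and at 118, 133 and 145 CPM in obese MHCII-low macrophages. The lean CD11c-negative libraries held 44.8, 46.04 and 63 CPM of Hist1h1c and the obese ones 122, 126 and 163 CPM. No lean library reached an obese one in either population. Hist1h1c rose in MHCII-low (log2 1.28, SE 0.23, adjusted p = 0.000516) and in CD11c-negative macrophages (log2 1.41, SE 0.23, adjusted p = 0.0001704). Hist1h1e stood at 13.4, 14.3 and 18.1 CPM in lean and at 44.97, 47.5 and 57.2 CPM in obese MHCII-low macrophages. For Hist1h1e the CD11c-negative libraries gave 18.1, 21.6 and 24.3 CPM with normal diet and 53.4, 57.5 and 109 CPM with high fat diet. The groups of this member did not overlap either. Hist1h1e rose in MHCII-low (log2 1.71, SE 0.28, adjusted p = 0.000234) and in CD11c-negative macrophages (log2 1.78, SE 0.27, adjusted p = 0.0001196). Hist1h1d stood at 5.13, 5.92 and 6.17 CPM in lean and at 18.6, 19.3 and 22.96 CPM in obese MHCII-low macrophages. In CD11c-negative macrophages the Hist1h1d values were 7.32, 9.81 and 13.6 CPM in lean and 19.9, 24.7 and 41.5 CPM in obese mice. The obese values were higher throughout. Hist1h1d rose in MHCII-low (log2 1.82, SE 0.26, adjusted p = 5.91e-05) and in CD11c-negative macrophages (log2 1.48, SE 0.25, adjusted p = 0.000241). Hist1h1b, another somatic H1, was among the 5 largest rises in MHCII-low macrophages, from 2.23, 2.72 and 2.83 CPM in lean to 12.4, 12.5 and 16.6 CPM in obese mice (log2 2.41, SE 0.27, adjusted p = 3.33e-06). The uncalled member was Hist1h1t, the testis-specific H1, whose highest library in any group was at 1.02 CPM.

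H2A pairs with H2B in the dimers at the faces of the nucleosome. Of 15 H2A members, 12 rose in MHCII-low and 13 in CD11c-negative macrophages, with class medians of 1.67 and 1.55. Hist1h2ap stood at 4.34, 4.49 and 6.46 CPM in lean and at 18.8, 18.9 and 21.04 CPM in obese MHCII-low macrophages. The lean CD11c-negative libraries held 2.75, 7.36 and 9.81 CPM of Hist1h2ap and the obese ones 22.6, 25 and 27.4 CPM. Every obese value was above every lean value. Hist1h2ap rose in MHCII-low (log2 1.94, SE 0.32, adjusted p = 0.000299) and in CD11c-negative macrophages (log2 1.90, SE 0.32, adjusted p = 0.000231). Hist1h2ak stood at 1.599, 2.76 and 3.301 CPM in lean and at 6.36, 6.94 and 7.83 CPM in obese MHCII-low macrophages. For Hist1h2ak the CD11c-negative libraries gave 1.24, 3.68 and 5.02 CPM with normal diet and 8.72, 9.103 and 11.4 CPM with high fat diet. The diets were again apart. Hist1h2ak rose in MHCII-low (log2 1.46, SE 0.34, adjusted p = 0.00337) and in CD11c-negative macrophages (log2 1.55, SE 0.33, adjusted p = 0.001497). Hist1h2ab stood at 1.46, 1.77 and 2.62 CPM in lean and at 6.75, 6.76 and 7.68 CPM in obese MHCII-low macrophages. In CD11c-negative macrophages the Hist1h2ab values were 0.915, 3.12 and 4.02 CPM in lean and 8.83, 9.598 and 10.3 CPM in obese mice. The same separation held in both populations for this member. Hist1h2ab rose in MHCII-low (log2 1.86, SE 0.34, adjusted p = 0.000538) and in CD11c-negative macrophages (log2 1.82, SE 0.33, adjusted p = 0.000367). The largest rise of any named member in MHCII-low macrophages was that of Hist1h2ao, from 0.216, 0.3398 and 0.457 to 1.52, 1.84 and 2.77 CPM (log2 2.59, SE 0.49, adjusted p = 0.000701), a gene whose reads can be shared with Hist1h2ap. Hist1h2an, with 0.412, 0.514 and 0.541 CPM in lean and 2.01, 2.21 and 2.56 CPM in obese CD11c-negative macrophages, was among the 5 largest there (log2 2.19, SE 0.35, adjusted p = 0.000122).

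H2B genes gave the largest class median, 1.93 in MHCII-low and 1.88 in CD11c-negative macrophages, with 14 and 13 of 17 members called higher. Hist1h2bc stood at 10.96, 11.6 and 14.2 CPM in lean and at 38.99, 49.6 and 51.1 CPM in obese MHCII-low macrophages. The lean CD11c-negative libraries held 6.77, 9.77 and 11.9 CPM of Hist1h2bc and the obese ones 38.3, 39.7 and 40.3 CPM. The diets were far apart. Hist1h2bc rose in MHCII-low (log2 1.93, SE 0.17, adjusted p = 1.83e-07) and in CD11c-negative macrophages (log2 2.05, SE 0.17, adjusted p = 1.18e-07). Hist1h2bg stood at 7.77, 8.69 and 9.5 CPM in lean and at 29.8, 32.4 and 34.2 CPM in obese MHCII-low macrophages. For Hist1h2bg the CD11c-negative libraries gave 5.35, 12.3 and 13.2 CPM with normal diet and 33.9, 41.8 and 51.5 CPM with high fat diet. No overlap was seen. Hist1h2bg rose in MHCII-low (log2 1.89, SE 0.30, adjusted p = 0.000218) and in CD11c-negative macrophages (log2 2.04, SE 0.30, adjusted p = 8.43e-05). Hist1h2bn stood at 3.197, 3.84 and 5.29 CPM in lean and at 19.1, 22.5 and 23.4 CPM in obese MHCII-low macrophages. In CD11c-negative macrophages the Hist1h2bn values were 1.83, 6.88 and 7.24 CPM in lean and 22.6, 27.1 and 38.9 CPM in obese mice. Lean CD11c-negative libraries spread widely here but stayed below the obese ones. Hist1h2bn rose in MHCII-low (log2 2.40, SE 0.43, adjusted p = 0.000652) and in CD11c-negative macrophages (log2 2.46, SE 0.42, adjusted p = 0.000344). The other named H2B members, Hist1h2br, Hist1h2bl and Hist1h2bk, were at 3.68, 4.16 and 4.79, at 1.05, 1.54 and 1.78 and at 2.33, 4.03 and 4.91 CPM in lean CD11c-negative macrophages. In obese CD11c-negative macrophages they were at 17.5, 21.1 and 34.2, at 5.75, 6.498 and 8.93 and at 12.7, 16.5 and 22.7 CPM. Hist1h2br had the largest called rise in that population (log2 2.53, SE 0.25, adjusted p = 9.07e-07), and Hist1h2bl and Hist1h2bk rose by 2.26 (SE 0.28) and 2.20 (SE 0.24) on the log2 scale. In MHCII-low macrophages Hist1h2bl went from 0.604, 1.096 and 1.55 to 4.19, 5.67 and 5.87 CPM (log2 2.28, SE 0.29, adjusted p = 1.14e-05). Hist1h2bm missed the threshold in CD11c-negative macrophages (log2 1.15, SE 0.44, adjusted p = 0.0506), and Hist1h2ba, a testis-specific H2B, was at most 0.566 CPM in any library.

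H3, whose tail carries many of the known chromatin marks, and H4 form the tetramer at the centre of the nucleosome. Of 10 H3 members 9 rose in MHCII-low and all 10 in CD11c-negative macrophages. Hist1h3f stood at 6.03, 6.904 and 8.01 CPM in lean and at 17.3, 20.4 and 20.6 CPM in obese MHCII-low macrophages. The lean CD11c-negative libraries held 6.82, 10.8 and 12.9 CPM of Hist1h3f and the obese ones 22.3, 22.5 and 35.5 CPM. Obese libraries were higher throughout. Hist1h3f rose in MHCII-low (log2 1.48, SE 0.23, adjusted p = 9.02e-05) and in CD11c-negative macrophages (log2 1.39, SE 0.22, adjusted p = 0.000107). Hist1h3e stood at 3.56, 5.74 and 5.97 CPM in lean and at 13.6, 13.8 and 17.8 CPM in obese MHCII-low macrophages. For Hist1h3e the CD11c-negative libraries gave 5.995, 8.38 and 9.19 CPM with normal diet and 17.4, 17.6 and 28.9 CPM with high fat diet. There was no overlap between the diets. Hist1h3e rose in MHCII-low (log2 1.57, SE 0.25, adjusted p = 0.000137) and in CD11c-negative macrophages (log2 1.44, SE 0.24, adjusted p = 0.0001898). Hist1h3b stood at 3.88, 4.57 and 5.73 CPM in lean and at 15.3, 18.8 and 20.7 CPM in obese MHCII-low macrophages. In CD11c-negative macrophages the Hist1h3b values were 6.59, 7.47 and 10.8 CPM in lean and 19.5, 19.8 and 33.1 CPM in obese mice. The same was true of this member. Hist1h3b rose in MHCII-low (log2 1.95, SE 0.23, adjusted p = 6.37e-06) and in CD11c-negative macrophages (log2 1.54, SE 0.23, adjusted p = 4.87e-05). Hist1h3g was among the 5 largest rises in MHCII-low macrophages, from 0.243, 0.561 and 0.959 to 2.48, 3.16 and 3.303 CPM (log2 2.32, SE 0.38, adjusted p = 0.000176).

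H4 members gave the smallest class medians, 1.34 and 1.16, with 10 of 13 called higher in each macrophage population. Hist1h4d stood at 15.9, 17.1 and 22.2 CPM in lean and at 34.6, 35.2 and 41.7 CPM in obese MHCII-low macrophages. The lean CD11c-negative libraries held 20.6, 25.7 and 29.9 CPM of Hist1h4d and the obese ones 45.6, 45.8 and 60.5 CPM. The change was small beside that of the other leading members, but no libraries overlapped. Hist1h4d rose in MHCII-low (log2 1.01, SE 0.16, adjusted p = 9.47e-05) and in CD11c-negative macrophages (log2 0.99, SE 0.15, adjusted p = 8.43e-05). Hist1h4k stood at 5.66, 7.21 and 7.33 CPM in lean and at 15.97, 17.9 and 20.8 CPM in obese MHCII-low macrophages. For Hist1h4k the CD11c-negative libraries gave 9.198, 11.2 and 12.4 CPM with normal diet and 18.7, 18.9 and 35.9 CPM with high fat diet. The obese libraries were again above the lean ones. Hist1h4k rose in MHCII-low (log2 1.43, SE 0.25, adjusted p = 0.0003005) and in CD11c-negative macrophages (log2 1.16, SE 0.24, adjusted p = 0.00116). Hist1h4m stood at 5.09, 5.39 and 5.66 CPM in lean and at 14.1, 14.3 and 14.6 CPM in obese MHCII-low macrophages. In CD11c-negative macrophages the Hist1h4m values were 4.16, 7.07 and 8.701 CPM in lean and 15.8, 19 and 19.9 CPM in obese mice. Here too the groups were apart. Hist1h4m rose in MHCII-low (log2 1.41, SE 0.22, adjusted p = 0.000116) and in CD11c-negative macrophages (log2 1.45, SE 0.22, adjusted p = 6.22e-05). As a share of all histone reads, H4 genes took 21.98 to 23.8% (lean) and 17.7 to 17.99% (obese) of MHCII-low macrophages, and 24.7 to 26.1% and 18.2 to 19.9% in CD11c-negative macrophages. H2B moved the other way, with 20.5 to 21.9% (lean) and 25.9 to 28.6% (obese) in MHCII-low and 18.1 to 20.2% and 25.5 to 27.6% in CD11c-negative macrophages. These shares are descriptions without a test, and the part of reads shared between classes in them was not tested.

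**Figure D3:**
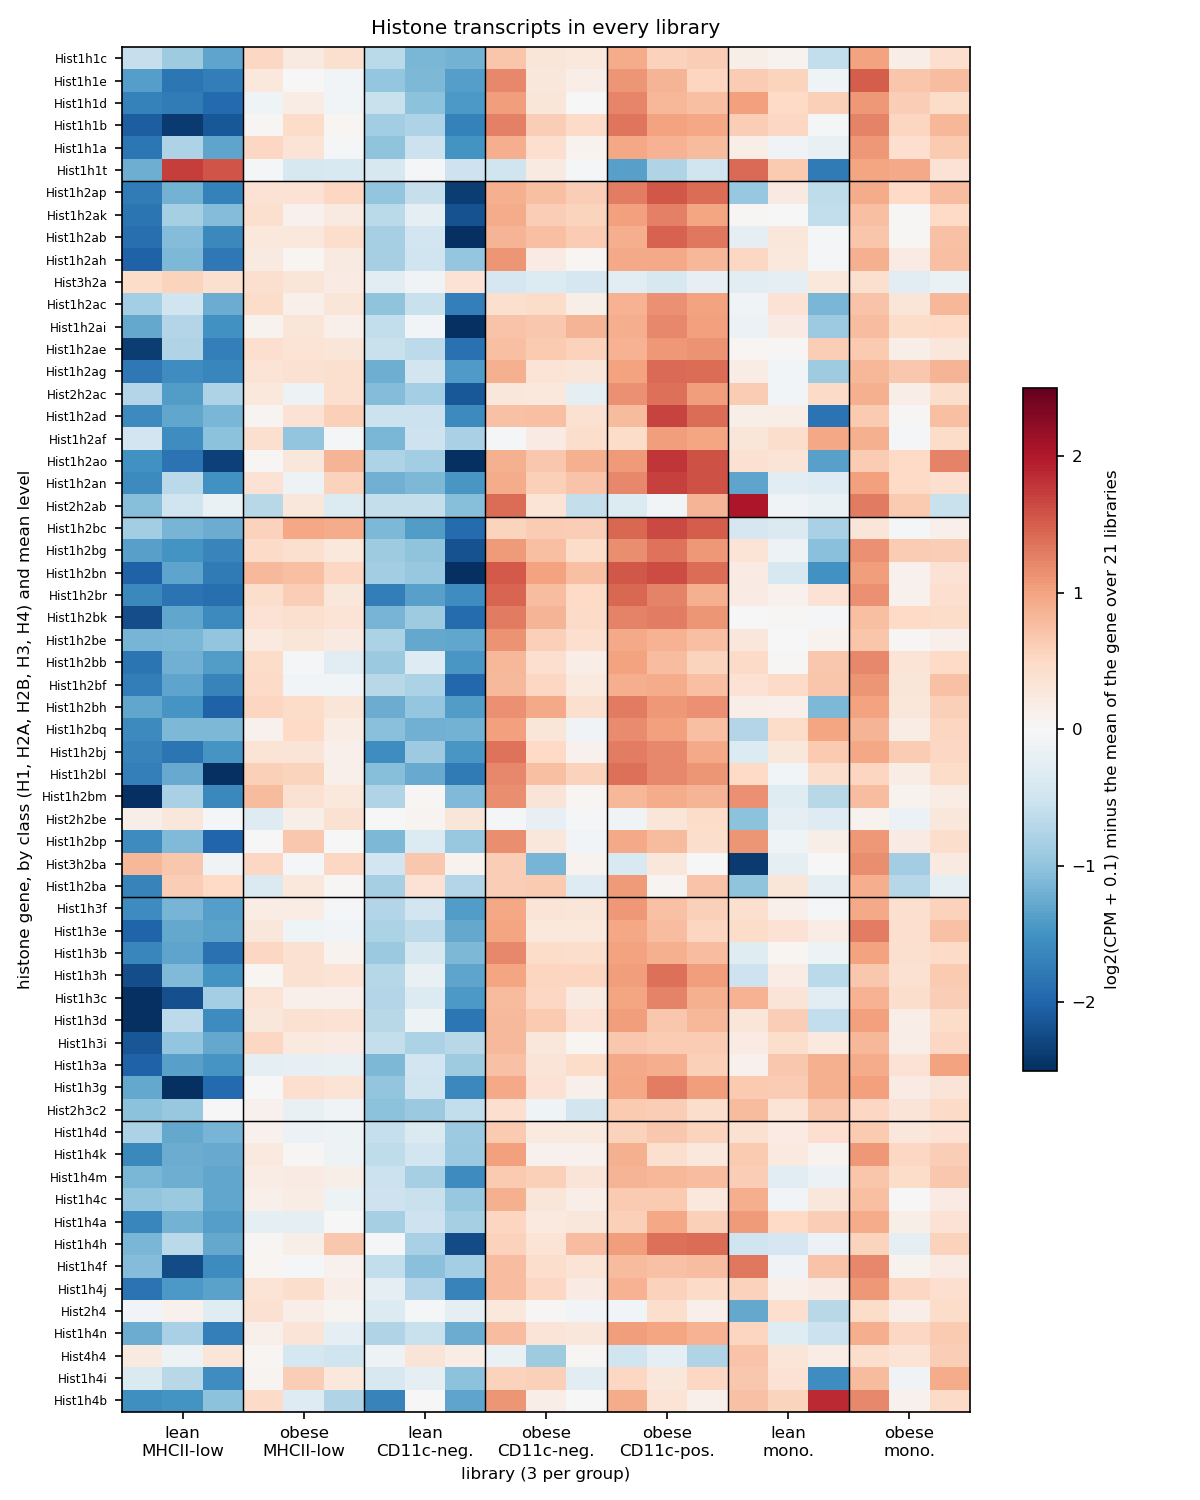
Each histone gene (rows, by class and mean level) in 21 libraries (columns, 3 per group), as log2(CPM + 0.1) minus the mean of the gene; red is above and blue below that mean. Most rows turn from blue in the lean to red in the obese macrophage columns, whereas Hist2h2be, Hist2h4 and Hist4h4 stay pale in the macrophage columns.

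The members lie at 4 places: 53 in the Hist1 cluster (GRCm38 chromosome 13, 21715763 to 23934156), 5 on chromosome 3, 2 on chromosome 11 and 1 on chromosome 6. This grouping was chosen after the values were seen. In the cluster 49 of 53 members rose in MHCII-low and 49 in CD11c-negative macrophages, with medians of 1.74 and 1.48. Of the 8 outside it, 1 and 2 rose, with medians of 0.13 and 0.05, a share near the 16.8% of all genes that rose in each population. Hist2h2ac, an H2A gene, rose in both (log2 1.18, SE 0.31, adjusted p = 0.00781 in MHCII-low macrophages), from 0.971, 1.55 and 1.599 to 2.49, 3.303 and 3.61 CPM. Hist2h3c2, an H3 gene, rose in CD11c-negative macrophages from 1.15, 1.24 and 1.56 to 1.75, 2.24 and 3.29 CPM (log2 0.89, SE 0.29, adjusted p = 0.0238). Hist2h2be, an H2B gene with no read sharing found, was at 3.19, 3.61 and 3.98 CPM in lean and 2.57, 3.61 and 4.26 CPM in obese MHCII-low macrophages, overlapping, with a log2 difference of -0.05 (SE 0.24). Hist4h4, an H4 gene, was at 2.67, 3.43 and 3.62 and 2.03, 2.12 and 3.01 CPM there, also overlapping (log2 -0.44, SE 0.26, adjusted p = 0.204). The summed level of these 8 was 14.9 to 28.9 CPM over all 21 libraries. Whether locus, sequence sharing or 3′ end length goes with the difference between the sets was not tested. Among members with at most 20% shared 50-base stretches, 9 of 13 rose in each macrophage population, with medians of 1.17 and 1.39, against 20 and 23 of 24 and medians of 1.76 and 1.53 where over 60% was shared.

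In monocyte-derived cells the diet difference was smaller, with 10 of 61 members called higher and none lower, where 7.44% of all genes rose and 9.76% fell. The median was 0.48 against -0.05 over all genes, and 16 members did not overlap, with obese higher (13.2% of all genes). The called members were Hist1h1a, Hist1h1c, Hist1h2ag, Hist1h2an, Hist1h2ap, Hist1h2bc, Hist1h2bg, Hist1h2bh, Hist1h3b and Hist1h3h, and the 13 H4 members were not called. Hist1h1c was at 66.3, 108 and 112 CPM in lean and at 114, 136 and 204 CPM in obese monocyte-derived cells, and rose (log2 0.66, SE 0.23, adjusted p = 0.0496). Hist1h2ap was at 7.57, 9.43 and 17.1 CPM in lean and at 20.96, 25.2 and 27.9 CPM in obese monocyte-derived cells, without overlap, and rose (log2 1.11, SE 0.31, adjusted p = 0.0224). Hist1h2bc was at 14.8, 19.4 and 20.2 CPM in lean and at 25.4, 28.3 and 32.2 CPM in obese monocyte-derived cells, with obese values higher throughout, and rose (log2 0.66, SE 0.17, adjusted p = 0.01302). Hist1h2bg, at 11.9, 22.7 and 31.4 CPM in lean and 37.6, 38.3 and 54.6 CPM in obese monocyte-derived cells, rose as well (log2 0.97, SE 0.29, adjusted p = 0.0297). Hist1h3b was at 11.7, 13.2 and 14.9 CPM in lean and at 19.02, 19.9 and 28.9 CPM in obese monocyte-derived cells, and rose (log2 0.77, SE 0.22, adjusted p = 0.0239). Hist1h2an (log2 1.33, SE 0.35, adjusted p = 0.0149), Hist1h2ag (log2 0.97, SE 0.28, adjusted p = 0.0216) and Hist1h3h (log2 0.86, SE 0.28, adjusted p = 0.0366) were the other leading rises. The count depended on single libraries: it was 1 without lean monocyte-derived replicate 3, 4 without obese monocyte-derived replicate 1 and 21 without obese monocyte-derived replicate 2.

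The remaining 10 leading members were not called in monocyte-derived cells. Hist1h1e was at 43.9, 69.5 and 73.8 CPM in lean and at 76.9, 80.4 and 135 CPM in obese monocyte-derived cells, without overlap (log2 0.64, SE 0.27, adjusted p = 0.1001). Hist1h1d was at 28.4, 30.5 and 40.9 CPM in lean and at 27.7, 30.8 and 42.95 CPM in obese monocyte-derived cells, overlapping almost entirely (log2 0.02, SE 0.24, adjusted p = 0.959). Hist1h4d was at 44.4, 49.9 and 51.7 CPM in lean and at 47.1, 49.8 and 60.9 CPM in obese monocyte-derived cells, again overlapping (log2 0.11, SE 0.15, adjusted p = 0.633). Most of the others overlapped as well, and their lean values are given before the obese ones. Hist1h2ak was at 3.86, 5.99 and 6.07 and 6.05, 8.47 and 10.02 CPM, and Hist1h2ab at 4.79, 5.49 and 6.91 and 5.77, 9.22 and 9.48 CPM. Of the H2B genes, Hist1h2bn was at 4.63, 10.1 and 15.3 and 14.3, 17.2 and 27.5 CPM, which overlap. Only Hist1h3f among these was apart, at 17.5, 19.7 and 23.7 and 23.8, 26.9 and 34.8 CPM, with Hist1h3e at 16.7, 18.9 and 19.99 and 19.5, 24.3 and 35.5 CPM. Hist1h4k was at 18.6, 20.8 and 27.4 and 25.02, 26.9 and 37.4 CPM and Hist1h4m at 10.3, 11.3 and 19.4 and 17.4, 20.3 and 20.5 CPM.

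The diet effect differed from that of CD11c-negative macrophages for 14 of 61 members, each smaller in monocyte-derived cells (edgeR interaction term; 2.51% of all genes had a smaller and 3.85% a larger effect). The median difference was -1.02 against -0.03 over all genes. Leaving out 1 library moved the count of 14 to between 5 and 19, and the compared libraries alone gave 6. The number in the title as a block, shared between the diets, gave 20, each smaller. In that fit 610 of 22935 genes had a smaller and 949 a larger effect. A block kept separate for each diet was not run for this difference. It was 5 without obese monocyte-derived replicate 2 or 3, 6 without lean CD11c-negative replicate 3 or obese CD11c-negative replicate 1, and 8 and 9 without obese CD11c-negative replicates 2 and 3. By class the 14 were 2 H1, 0 H2A, 7 H2B, 1 H3 and 4 H4 members, and for H2A no member was called by edgeR although 6 had an unadjusted p under 0.05. Lean monocyte-derived cells already held high histone levels: 43 members were higher and 1 lower than in lean CD11c-negative macrophages, where 23.6% of all genes were higher and 20.1% lower, 43.7% in all. The member that was lower was Hist2h2be, at 1.56, 2.57 and 2.75 against 3.28, 3.44 and 4.03 CPM (log2 -0.64, SE 0.25, adjusted p = 0.0427), a call that was lost with DESeq2 size factors, where 44 members were higher and 0 lower. Hist1h2br was at 13.3, 14.3 and 15.9 against 3.68, 4.16 and 4.79 CPM, with no overlap (log2 1.78, SE 0.26, adjusted p = 1.04e-05). The largest rises of that comparison also held Hist1h4b (log2 2.17, SE 0.57, adjusted p = 0.00452), Hist1h3g (log2 1.76, SE 0.35, adjusted p = 0.000439), Hist2h2ac (log2 1.70, SE 0.32, adjusted p = 0.000254) and Hist1h2bl (log2 1.70, SE 0.28, adjusted p = 6.00e-05). The median was 1.08 against 0.14 over all genes. Both comparisons use the lean CD11c-negative libraries. Summed levels of 30 S phase and replication genes, taken up below, overlapped between these lean groups. They were 421, 443 and 488 CPM (monocyte-derived) against 463, 482 and 569 CPM (CD11c-negative). The sum of 15 mitosis genes was higher without overlap, at 351, 358 and 403 against 203, 216 and 259 CPM. Whether the higher histone levels go with more cells in S phase was not tested. Dendritic cell markers were higher for 5 of 6 genes in the same lean comparison, and their part in the histone differences was not tested.

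Among populations of obese mice the differences called without pairing the libraries were few. CD11c-positive exceeded CD11c-negative macrophages for 2 members and were below for none (1.38% of all genes were higher and 2.11% lower, 3.49% in all), with a median of 0.32 against -0.03 over all genes. Hist1h2bc was at 70.1, 74.8 and 81.5 CPM in CD11c-positive and 38.3, 39.7 and 40.3 CPM in CD11c-negative macrophages, without overlap (log2 0.94, SE 0.16, adjusted p = 0.00403). Hist2h2ac, at 5.76, 6.15 and 7.21 against 2.32, 3.298 and 3.36 CPM, also did not overlap (log2 1.09, SE 0.29, adjusted p = 0.0399). Obese libraries of equal number were taken as pairs from their correlated deviations, which the labels do not state. With the number as a block, kept separate for each diet, 5 members were called. All 5 were higher, and 22 members had an unadjusted p under 0.05. In that fit 1115 of 22935 genes were higher and 1249 lower. A block on the number in the title, shared between the diets, gave 2. In CD11c-positive macrophages the remaining leading members lay as follows. For the H1 and H2A classes the values were Hist1h1c at 151, 156 and 193 CPM, Hist1h1e at 68.5, 85.8 and 101 CPM, Hist1h1d at 34.04, 35.6 and 46.7 CPM, Hist1h2ap at 35.9, 39 and 43.2 CPM, Hist1h2ak at 11.8, 12.2 and 14.4 CPM and Hist1h2ab at 10.7, 14.1 and 15.9 CPM. For H2B they were Hist1h2bg at 52.4, 55.3 and 63.2 CPM and Hist1h2bn at 35.4, 39.1 and 41.5 CPM, and for H3 Hist1h3f at 27.2, 30.03 and 38.1 CPM, Hist1h3e at 21.3, 25.1 and 28.7 CPM and Hist1h3b at 24.6, 26.7 and 29.1 CPM. For H4 they were Hist1h4d at 56.5, 57.6 and 61.8 CPM, Hist1h4k at 21.02, 22.9 and 32.5 CPM and Hist1h4m at 21.6, 22.6 and 22.9 CPM. None of these was called against CD11c-negative macrophages, and 22 of the 61 members did not overlap, CD11c-positive higher (18.5% of all genes).

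Between obese MHCII-low and CD11c-negative macrophages edgeR called 0 of 61 members (10 at an unadjusted p under 0.05, 2 by DESeq2, 4 with the replicate block within each diet and 0 with the block shared between diets), where 1.85% of all genes were higher and 1.19% lower, 3.05% in all. The median was -0.40, and 16 members were lower in every MHCII-low library (11.8% of all genes). With the block within each diet 23 members had an unadjusted p under 0.05, and 751 of 22935 genes were called higher and 581 lower. In lean mice the same contrast called 1 member, Hist1h1b, lower in MHCII-low macrophages (log2 -1.16, SE 0.27, adjusted p = 0.0357), where 1.05% of all genes were lower and 0.253% higher, 1.3% in all. In that contrast 12 members were lower in every MHCII-low library (10.3% of all genes) and 1 was higher in every one (8.79%). The Hist1h1b values were 2.23, 2.72 and 2.83 against 3.71, 6.61 and 7.03 CPM, and the call was lost without any of 4 of the 6 libraries. With the replicate block on the description number the lean contrast called 9 members, all lower, with 38 at an unadjusted p under 0.05. In that fit 89 of 22935 genes were higher and 349 lower. Obese monocyte-derived cells differed from obese CD11c-negative macrophages in 2 members, where 11% of all genes were higher and 12.8% lower. Hist4h4 was higher (log2 0.79, SE 0.26, adjusted p = 0.03103) and Hist1h2bc lower (log2 -0.46, SE 0.16, adjusted p = 0.0452), the latter at 25.4, 28.3 and 32.2 against 38.3, 39.7 and 40.3 CPM. For these cells 4 members were called with the block within each diet and 3 with the block shared between diets. The block within each diet called 3236 of 22935 genes higher and 3817 lower.

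Other genes of DNA replication and of mitosis rose in obese macrophages too. Beside the counts below, 16.8% of all genes rose in each macrophage population and 7.44% in monocyte-derived cells. Of 30 S phase and replication genes 23 rose and none fell in MHCII-low macrophages (median 1.01), 18 rose and 1 fell in CD11c-negative macrophages (median 0.87), and 5 rose in monocyte-derived cells (median 0.19). Mcm6, a subunit of the replicative helicase, went from 19.8 ± 2.93 to 61.1 ± 8.29 CPM in MHCII-low macrophages (mean ± SD, n = 3; log2 1.62, SE 0.13, adjusted p = 6.90e-08). Ccna2, the S phase cyclin, rose there too (log2 2.36, SE 0.19, adjusted p = 6.76e-08). All 15 mitosis genes rose in both macrophage populations (medians 2.03 and 1.36), Top2a, the topoisomerase of dividing cells, from 18.4 ± 2.24 to 75.3 ± 9.54 CPM in MHCII-low cells (log2 2.03, SE 0.17, adjusted p = 7.69e-08), and 3 of 15 rose in monocyte-derived cells.

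**Figure D4:**
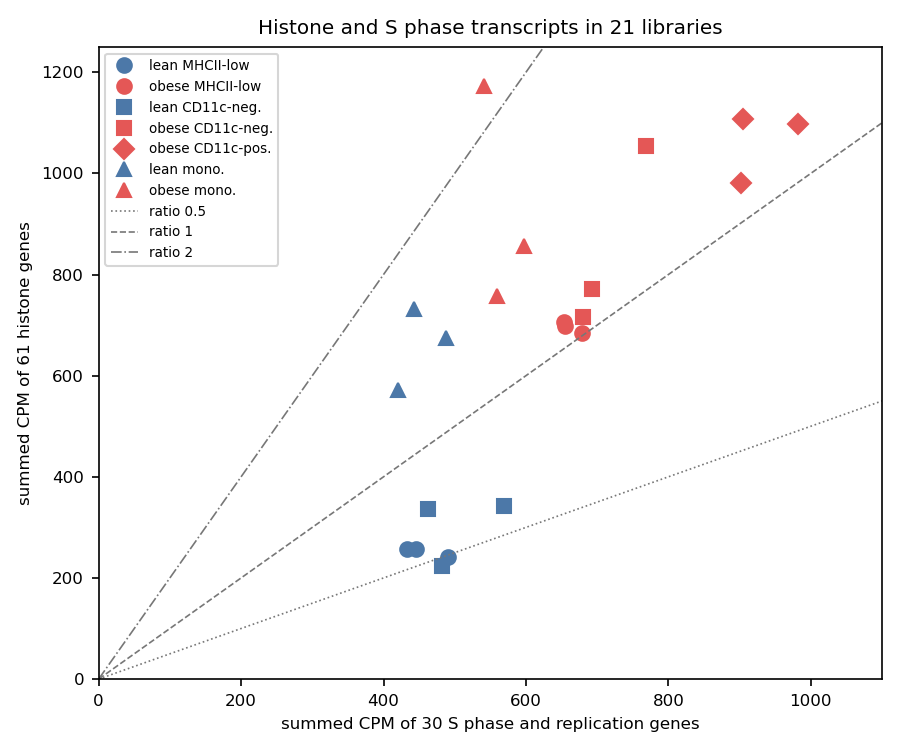
Summed CPM of the 61 histone genes (y axis) against summed CPM of 30 S phase and replication genes (x axis) in 21 libraries; lines mark ratios of 0.5, 1 and 2. Lean macrophages lie between 0.465 and 0.727, obese macrophages between 1.01 and 1.37, and monocyte-derived cells of both diets between 1.35 and 2.17.

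The histone sum divided by the S phase sum gave 0.493 to 0.594 for lean against 1.01 to 1.08 for obese MHCII-low macrophages, and 0.465 to 0.727 and 1.05 to 1.37 in CD11c-negative macrophages. For monocyte-derived cells it was 1.36 to 1.66 (lean) and 1.35 to 2.17 (obese), which overlap. These ratios carry no test. Divided by the mitosis sum instead, it was lower in all obese than in all lean MHCII-low libraries, 1.23 to 1.29 against 1.31 to 1.86. The direction was the other way in CD11c-negative macrophages, 1.11 to 1.56 (lean) and 1.47 to 1.68 (obese) with overlap, and in monocyte-derived cells, 1.596 to 1.92 (lean) and 2.01 to 2.67 (obese) without overlap.

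Genes that make or finish histone messages moved less. Of 19 tested, 5 rose in MHCII-low and 7 in CD11c-negative macrophages (16.8% of all genes rose in each), with medians of 0.16 and 0.18. In monocyte-derived cells 1 rose and 1 fell, where 7.44% of all genes rose and 9.76% fell. Slbp was at 27.6 ± 5.66 CPM in lean and 23.0 ± 1.04 CPM in obese MHCII-low macrophages (log2 -0.26, SE 0.14, adjusted p = 0.162) and was not called in CD11c-negative macrophages (log2 -0.14, SE 0.14, adjusted p = 0.466) or monocyte-derived cells (log2 0.19, SE 0.14, adjusted p = 0.349). Npat, the coactivator of histone genes at G1/S, was called in monocyte-derived cells (log2 0.56, SE 0.15, adjusted p = 0.0154), with log2 differences of 0.17 (SE 0.15) and 0.34 (SE 0.15) in MHCII-low and CD11c-negative macrophages. Casp8ap2, a component of the nuclear bodies where histone genes are transcribed, rose in MHCII-low (log2 0.52, SE 0.13, adjusted p = 0.00571) and CD11c-negative macrophages (log2 0.53, SE 0.13, adjusted p = 0.00384), and so did Cstf2, a cleavage factor (log2 0.73, SE 0.13, adjusted p = 0.000307 in MHCII-low). Of 18 histone chaperones 9 rose and 1 fell in each macrophage population, Nap1l1, a carrier of H2A and H2B, by a log2 change of 0.70 (SE 0.13) in MHCII-low and 0.64 (SE 0.13) in CD11c-negative macrophages. Of 11 genes listed as replication-independent histone variants, 4 rose and none fell in each macrophage population, with medians of 0.26 and 0.49. H2afx, the variant phosphorylated at DNA breaks, rose by 0.82 (SE 0.23) and 0.90 (SE 0.23) on the log2 scale.

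Some markers of other cells moved with diet as well. Over all tested genes 16.8% rose and 13.8% fell in MHCII-low macrophages, and 16.8% rose and 15.6% fell in CD11c-negative macrophages. In monocyte-derived cells 7.44% rose and 9.76% fell. A single call in a list this short is not set apart from these shares. In MHCII-low macrophages, with lean before obese, dendritic cell markers summed to 101 to 115 and 31.02 to 56.7 CPM (2 of 6 called lower), T and NK cell markers to 14.1 to 18.3 and 4.56 to 7.18 CPM (5 of 8 lower), and B cell markers to 4.55 to 5.24 and 2.47 to 3.36 CPM (3 of 5 lower). Fibroblast and preadipocyte markers there summed to 641 to 834 CPM in lean and 891, 980 and 2023 CPM in obese libraries, with 3 of 8 higher and 1 lower. Mesothelial markers summed to 18.4 to 32.1 and 3.39 to 9.34 CPM (3 of 4 lower), neutrophil markers to 53.5 to 80.5 and 38.97 to 50.6 CPM (1 of 4 tested lower), and adipocyte markers to 63.5 to 80.04 and 41.5 to 78.5 CPM (1 of 6 higher, 3 lower). Endothelial markers summed to 52.54 to 85.1 and 29.7 to 61.04 CPM, with 0 of 5 called by edgeR and 0 at an unadjusted p under 0.05. In CD11c-negative macrophages dendritic markers went from 76.6 to 86.7 down to 14.8 to 21.8 CPM (3 of 6 lower). T and NK markers went from 11.4 to 12.9 down to 2.77 to 4.83 CPM (3 of 8 lower). Fibroblast markers of this population were at 545 to 738 CPM in lean and 897, 1019 and 2138 CPM in obese libraries (3 of 8 higher). Adipocyte markers summed there to 67.6 to 96.97 and 98.8 to 145 CPM, without overlap, where 1 of 6 was called higher and 2 lower. B cell markers were at 8.26 to 10.5 and 6.17 to 9.01 CPM (1 of 5 lower), neutrophil markers at 59.04 to 77.5 and 41.3 to 53.9 CPM (1 of 4 lower), mesothelial markers at 13.6 to 25.2 and 4.73 to 13.6 CPM (2 of 4 lower) and endothelial markers at 69.6 to 77.1 and 50.9 to 95.95 CPM (0 of 5 called by edgeR, 0 at an unadjusted p under 0.05). Fibroblast markers of monocyte-derived cells stood at 208 to 309 CPM with normal and at 524, 585 and 1543 CPM with high fat diet (4 of 8 higher). In each of the 3 populations 1 obese library thus made the top of the fibroblast range. Adipocyte markers of monocyte-derived cells stood at 12.2 to 14.8 and 30.96 to 49.8 CPM, without overlap (1 of 6 higher, 1 lower). Neutrophil markers there were at 16.7 to 23.4 and 27.9 to 42.2 CPM (1 of 4 higher), T and NK markers at 7.13 to 17.3 and 7.21 to 9.06 CPM (1 of 8 lower), and dendritic markers at the levels given above (1 of 6 lower). B cell markers were at 11.8 to 16.6 and 7.904 to 18.3 CPM, mesothelial markers at 5.78 to 13.2 and 4.19 to 9.53 CPM, and endothelial markers at 31.3 to 40.99 and 26.8 to 90.5 CPM. EdgeR called 0 members of these last 3 lists, where 2 B cell, 0 mesothelial and 0 endothelial markers had an unadjusted p under 0.05. Of the neutrophil markers, Ly6g was at 0 in all libraries of every group except lean MHCII-low and lean monocyte-derived. Retnlg was at 0 in all obese CD11c-negative libraries. No marker of the other lists was at 0 in all libraries of a group. The part of these markers in the histone differences was not tested.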

How the data were processed

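Bulk RNA-seq was made from 21 libraries in 7 groups of 3. The authors deposited a table of raw counts per gene, used here as deposited. Per the submitters' processing notes, bcl2fastq, Trim Galore 0.4.5, STAR 2.6.0a, featureCounts and Subread 1.4.6-p5 with GRCm38 were used. The strand setting, the annotation and the handling of reads that map to several genes are not given in the sources used here. Gene IDs were matched to GENCODE M21, 53229 with version and 54409 of 54532 without.

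Genes were filtered with filterByExpr, leaving 22935, and fitted with TMM scaling and a robust quasi-likelihood model of 7 group means in edgeR 4.0.16 (limma 3.58.1, R 4.3.3), with 14 residual degrees of freedom, a common dispersion of 0.0502 and a prior count of 2. Calls are at an adjusted p under 0.05 (Benjamini-Hochberg). SEs were derived from the F statistic. Per-gene CPM use TMM, and summed CPM the library total. The pipeline was tested on simulated data. Tables and figures used Python 3.11.15, pandas 2.3.3 and matplotlib 3.10.9. Alternatives were DESeq2 1.42.0, DESeq2 size factors, no filter, the compared libraries alone, replicate blocks and leaving out each library.

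Named are the 3 most abundant members per class, the 5 called members with the largest rise and the 5 with the largest fall per contrast among those reaching 1 CPM, and called members against the main direction. Members and lists were chosen with earlier results of these data known. Among obese groups, deviations of same-numbered libraries correlated above 0.1 in 18 of 18 pairs (0.121 to 0.741 over 10447 genes), and of other pairs from -0.676 to 0.195, so the numbers were taken as pairs. Among lean groups 4 of 9 pairs by the title number and 5 of 7 by the description number did. Sequencing reads are not independent molecules.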

Additional observations from a re-analysis of the deposited data

Results flagged for a closer look

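The diet effect was smaller in monocyte-derived cells than in CD11c-negative macrophages for 14 histone genes by a test of the difference itself (edgeR interaction term, adjusted over 22935 genes). Each difference is the log2 change by diet in monocyte-derived cells minus that in CD11c-negative macrophages. Of the H1 genes Hist1h1d (-1.46, SE 0.35, adjusted p = 0.0178) and Hist1h1b (-1.39, SE 0.35, adjusted p = 0.0214) differed. Of the H2B genes Hist1h2bl (-2.17, SE 0.38, adjusted p = 0.00191), Hist1h2br (-2.12, SE 0.35, adjusted p = 0.00128), Hist1h2be (-1.69, SE 0.29, adjusted p = 0.00159), Hist1h2bk (-1.61, SE 0.33, adjusted p = 0.00572), Hist1h2bj (-1.59, SE 0.41, adjusted p = 0.0231), Hist1h2bc (-1.40, SE 0.24, adjusted p = 0.00159) and Hist1h2bf (-1.37, SE 0.37, adjusted p = 0.0315) differed. Of the H3 genes Hist1h3g (-1.70, SE 0.48, adjusted p = 0.0364) differed. Of the H4 genes Hist1h4f (-1.55, SE 0.46, adjusted p = 0.0459), Hist1h4a (-1.32, SE 0.28, adjusted p = 0.00837), Hist1h4c (-1.23, SE 0.34, adjusted p = 0.0355) and Hist1h4d (-0.88, SE 0.22, adjusted p = 0.0187) differed. For Hist1h2bl, the largest of these differences, the diet change was 2.26 (SE 0.28) in CD11c-negative macrophages and 0.10 (SE 0.26) in monocyte-derived cells. No H2A gene passed by edgeR, with 6 at an unadjusted p under 0.05. The count of 14 was 5 to 19 without 1 library and 6 with the compared libraries alone. No fit of this difference paired the libraries within each diet.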

How the results depend on the processing

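In the 3 diet contrasts most called members were higher under every alternative that called any, but medians near 0 in other contrasts changed sign. The median of obese monocyte-derived against CD11c-negative cells (0.08) was -0.01 and -0.02 without obese CD11c-negative replicates 2 and 3 and -0.13 without obese monocyte-derived replicate 1. That of the MHCII-low minus CD11c-negative diet effect (0.04) ran from -0.07 to 0.24 without 1 library. A single lower call appeared in MHCII-low macrophages without lean MHCII-low replicate 1 (51 higher, 1 lower), and 1 in CD11c-negative macrophages without all monocyte-derived libraries (53 higher, 1 lower). The counts called between obese and lean mice held within 1.5 times under all alternatives in MHCII-low and CD11c-negative macrophages, and leaving out 1 library gave 48 to 52 and 47 to 51. In monocyte-derived cells the 10 called became 24 with no filter on low counts and 0 with the compared libraries alone (15 at an unadjusted p under 0.05 by edgeR, 9 called by DESeq2 in all libraries), and 1 to 21 without 1 library. The count was 1 without lean monocyte-derived replicate 3, 4 without obese monocyte-derived replicate 1 and 21 without obese monocyte-derived replicate 2. The 14 that differed in diet effect between monocyte-derived cells and CD11c-negative macrophages became 24 with no filter, 23 by DESeq2 and 6 with the compared libraries alone, and 5 to 19 without 1 library. It was 6 without lean CD11c-negative replicate 3 or obese CD11c-negative replicate 1, 8 and 9 without obese CD11c-negative replicates 2 and 3, and 5 without obese monocyte-derived replicate 2 or 3.

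CD11c-positive against CD11c-negative macrophages gave 4 with no filter, 7 with the compared libraries alone and 1 without any of the 6 libraries. Obese MHCII-low against CD11c-negative macrophages gave 2 with no filter, 2 by DESeq2, 1 with the compared libraries alone and 0 without any 1 library by edgeR (10 at an unadjusted p under 0.05 in all libraries). The lean contrast gave 6 with no filter and 0 to 1 without 1 library. Obese monocyte-derived against CD11c-negative cells gave 0 to 2, with 0 without obese CD11c-negative replicate 2 or obese monocyte-derived replicate 3. Lean monocyte-derived against CD11c-negative cells gave 34 to 48 without 1 library, and the diet effect of MHCII-low against CD11c-negative macrophages 0 to 0. Without all monocyte-derived libraries, a fit chosen after seeing the data, 2 were called in the obese and 2 in the lean contrast of MHCII-low with CD11c-negative macrophages. The cause of these changes was not tested.

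With the replicate block on the description number, kept separate for each diet, the called counts were 5 for CD11c-positive, 4 for obese MHCII-low and 4 for obese monocyte-derived against CD11c-negative cells. With the block on the title number, shared between diets, they were 2, 0 and 3, and the obese numbers themselves are the same in both labels. In lean mice 5 of 7 pairs with the same description number correlated above 0.1, against 2 of 20 other pairs. By the title number 4 of 9 did, against 3 of 18 other pairs. The lean MHCII-low contrast gave 9 with the block on the description number and 2 with that on the title number. The block on the description number was not run for the differences in diet effect between populations. Of the called member results named by the rule above, 77 of 77 stayed called by DESeq2 and 61 of 77 with the compared libraries alone. Members named without a call and genes of the other lists are not in these counts. Depth limits the members under 1 CPM, Hist1h1t and Hist1h2ba among them.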
